A study of Homo sapiens with 6 samples.

Results

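The proteasome genes were compared between HCT116 cells transfected with an siRNA against the long non-coding RNA AC010789.1 (si-AC010789.1) and HCT116 cells given a negative control siRNA (siRNA-NC). HCT116 is an established human colorectal cancer line, and AC010789.1 is the transcript whose silencing the study examined. RNA from 3 replicates of each group was sequenced. The cells of every library were transfected with a lipid reagent, Lipofectamine, and no other agent or allele is named for either group. The replicates are described as repeats from different cell generations of this line, and p-values measure the spread between them. Members were the protein-coding genes of the GENCODE v29 annotation (GRCh38) with symbols that begin with PSMA, PSMB, PSMC, PSMD, PSME, PSMF or PSMG, without readthrough genes. This gave 49 genes, of which 47 had rows in the count table among 18750 genes in all, and all 47 had enough counts to be tested. The other two members, PSMA8, an alpha subunit of the testis, and PSMB11, the catalytic subunit of the thymus, were not analysed here.

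The proteasome degrades most proteins that cells mark with ubiquitin. Its barrel, the 20S core, is built of stacked rings of alpha and beta subunits, and a few beta subunits carry the active sites on the inside. The 19S particle caps the barrel, and its ATPases unfold the substrate while its non-ATPase subunits bind ubiquitin and remove it. Interferon-induced beta subunits can replace the constitutive ones to form the immunoproteasome, other activators can take the place of the 19S particle, and dedicated chaperones assemble the rings. Cancer cells depend strongly on this machinery, and its subunits tend to be made in balanced amounts under the transcription factor NFE2L1.

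Gene levels were obtained by summing the deposited transcript counts of each gene and are given as CPM (counts scaled to a common library size, with TMM factors). The total count of a library was between 11277222 and 13443866, and the members took 0.428% to 0.461% of it. Of the 10 markers listed for a colorectal epithelial line, KRT8 (444 to 850 CPM) and KRT18 (351 to 535 CPM) were high, whereas EPCAM was at 3.10 to 5.58 CPM, CDH1 at 0.675 to 1.05 CPM and LGALS4 at 0 to 0.225 CPM. KRT19, CDX1, CDX2, VIL1 and CEACAM5 had no rows. Of the 6 markers of other cells, only the fibroblast collagen gene COL1A1 had rows (37.7 to 48.0 CPM), and the identity of the line was not tested. The summed level of the epithelial markers was 984 to 1228 CPM in siRNA-NC and 801 to 1041 CPM in si-AC010789.1, so the groups overlapped. The study describes a knockdown check of the sequenced samples. The level of the target was not analysed here in the count table. In bulk RNA, a smaller number of expressing cells and less RNA per cell cannot be told apart.

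None of the 47 proteasome genes passed the test of a difference between the groups. In edgeR's quasi-likelihood test over 13750 genes, 135 genes (0.982%) had an adjusted p-value under 0.05, and 0 of them were members. The lowest adjusted p among the members was 0.160, for PSMD14. DESeq2 called 528 of the 9746 genes to which it gave an adjusted p (5.42%) and 0 of 44 members, while PSMB9, PSMB10 and PSMG4 were given none. At an unadjusted p under 0.05 there were 6 members (12.8%), against 17.2% of all genes. Log2 fold changes, given here and throughout as si-AC010789.1 over siRNA-NC, ran from −0.26 (PSMF1) to 0.43 (PSMB6). Their median was 0.05, compared with −0.00066 over all genes, and the median size without regard to sign was 0.10 against 0.14. For 36 members the 95% interval of the log2 fold change lay between −0.5 and 0.5, and for PSMG4 alone it went beyond 1. The median coefficient of variation within a group was 6.40% for the members and 9.76% for all tested genes.

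The direction was unequal although no gene passed the test. Of the members, 32 (68.1%) had a positive log2 fold change and 15 a negative one, while 49.9% of all genes were positive. Some of these values were near 0, and 13 members did not keep their sign under all alternatives given below. In 8 members the 3 si-AC010789.1 libraries all lay above the 3 siRNA-NC libraries, namely PSMA1, PSMA2, PSMA7, PSMB1, PSMB8, PSMC1, PSMD8 and PSMD14. This held for 12.2% of all genes. The reverse was found for PSMB5 and PSME1, against 12.9% of all genes. Together the groups did not overlap in 10 members (21.3%). Each of these had a two-sided p of 0.1 in an exact permutation test, which cannot go lower with 3 libraries against 3. Since these genes were singled out after their values were seen, they are a description of the list. With 1 library left out, the groups did not overlap in 14 to 18 members (29.8% to 38.3%), where 34.2% to 35.8% of all genes behaved so.

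Added over all members, the level was 4383, 4328 and 4308 CPM in siRNA-NC and 4625, 4543 and 4436 CPM in si-AC010789.1. The si-AC010789.1 mean of 4535 ± 94.7 CPM was 1.04 times the siRNA-NC mean of 4340 ± 38.7 CPM (SD, n = 3 each), and the groups did not overlap. The summed level of the constitutive 20S core did not overlap either, with 1533, 1534 and 1556 CPM in siRNA-NC and 1676, 1674 and 1593 CPM in si-AC010789.1. Within the core, the alpha ring sums were apart, at 784, 742 and 750 CPM against 805, 800 and 791 CPM. The constitutive beta ring sums overlapped, at 750, 792 and 805 CPM against 871, 874 and 802 CPM. The summed level of the 19S particle overlapped between the groups, at 2116, 1964 and 1951 CPM against 2137, 2038 and 2066 CPM.

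**Figure D1:**
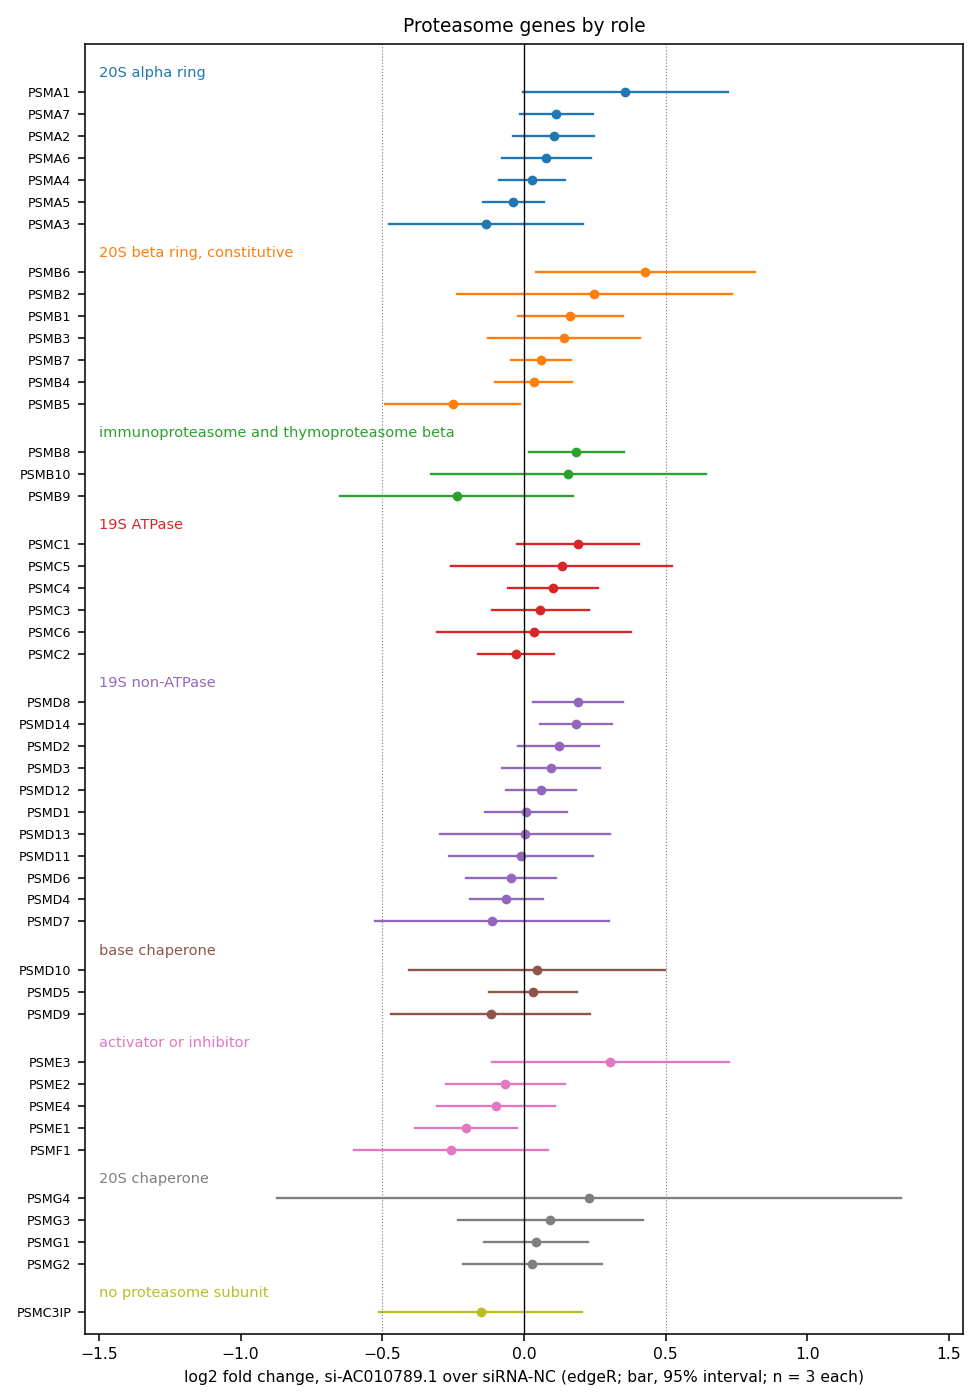
Log2 fold change of each tested proteasome gene (x axis, si-AC010789.1 over siRNA-NC, edgeR, n = 3 each) by role (y axis), with points for the estimate and bars for the 95% interval. Dotted lines mark −0.5 and 0.5, and the estimates lie between −0.26 for PSMF1 and 0.43 for PSMB6, with most bars crossing 0.

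The alpha ring forms the gate and the docking surface of the barrel. Of its 7 tested subunits, 5 had a positive and 2 a negative log2 fold change, with a median of 0.08 and a range from −0.13 to 0.36. PSMA1 (chromosome 11, 14504874 to 14643635, minus strand) was at 85.5, 81.2 and 62.2 CPM in siRNA-NC and at 89.0, 114 and 90.2 CPM in si-AC010789.1. Its log2 fold change was 0.36 ± 0.15 SE (edgeR adjusted p of 0.297). The lowest si-AC010789.1 library of PSMA1 was thus only just above the highest control library. PSMA7 (chromosome 20, 62136735 to 62143440, minus strand) was at 171, 158 and 177 CPM against 187, 180 and 182 CPM (log2 fold change 0.11, with an edgeR adjusted p of 0.341), and PSMA2 at 59.1, 59.9 and 57.5 CPM against 63.9, 60.6 and 65.4 CPM (0.10, adjusted p = 0.430). The remaining PSMA3, PSMA4, PSMA5 and PSMA6 overlapped between the groups, with log2 fold changes from −0.13 to 0.08.

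Among the constitutive beta subunits, PSMB5, PSMB6 and PSMB7 carry the chymotrypsin-like, caspase-like and trypsin-like sites, and the log2 fold changes of these 3 did not share a sign. PSMB5 (chromosome 14, 23016543 to 23035230, minus strand), the main target of bortezomib, was at 69.6, 66.6 and 68.4 CPM in siRNA-NC and at 51.7, 65.8 and 54.3 CPM in si-AC010789.1. All si-AC010789.1 values of PSMB5 were below the control values, the second replicate by less than 1 CPM (log2 fold change −0.25 ± 0.10 SE, with an edgeR adjusted p of 0.269). PSMB6 (chromosome 17, 4796144 to 4798503, plus strand) was at 37.5, 38.9 and 33.7 CPM against 59.2, 50.4 and 38.4 CPM. In its case a pair of si-AC010789.1 libraries was above the controls and the remaining library was among them, and the log2 fold change was 0.43 ± 0.16 SE (edgeR adjusted p of 0.251). PSMB7 (chromosome 9, 124353466 to 124415444, minus strand) was at 196, 188 and 191 CPM against 202, 192 and 204 CPM, a log2 fold change of 0.06. PSMB7 did not pass the test (adjusted p = 0.537 from edgeR), and its 95% interval ran from −0.04 to 0.17.

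The non-catalytic beta subunits close the ring. PSMB2 was at 149, 207 and 223 CPM in siRNA-NC and 262, 253 and 174 CPM in si-AC010789.1. The libraries within each group differed by more than the group means, and the log2 fold change of 0.25 had an adjusted p of 0.588 from edgeR. PSMB1 was at 93.5, 92.7 and 81.7 CPM against 98.3, 95.1 and 107 CPM (log2 fold change 0.16, with an edgeR adjusted p of 0.341). PSMB3 and PSMB4 had log2 fold changes of 0.14 and 0.03, and their groups overlapped.

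The inducible subunits PSMB8, PSMB9 and PSMB10 replace PSMB5, PSMB6 and PSMB7 in the immunoproteasome, which cuts peptides for presentation on MHC class I. PSMB8 (chromosome 6, 32840717 to 32844703, minus strand) was at 40.1, 41.5 and 41.3 CPM in siRNA-NC and at 49.2, 46.4 and 44.1 CPM in si-AC010789.1. Each si-AC010789.1 library was above each control library (log2 fold change 0.18 ± 0.07 SE, with an edgeR adjusted p of 0.253). PSMB9 (chromosome 6, 32844136 to 32859585, plus strand) was at 4.07, 4.82 and 4.12 CPM against 3.32, 3.51 and 4.21 CPM, with a log2 fold change of −0.24 (edgeR adjusted p of 0.531). PSMB10 (chromosome 16, 67934502 to 67937087, minus strand) was at 3.72, 5.27 and 3.90 CPM against 4.10, 5.43 and 4.85 CPM, with a log2 fold change of 0.16 (edgeR adjusted p of 0.745). The inducible subunits did not share a sign either. PSMB8 and PSMB9 lie on opposite strands and share exonic positions with each other, so their counts are uncertain where the counting ignored the strand. PSMB10 shares exonic positions with AC040162.1 on the same strand, and its counts are uncertain whether or not strand was used.

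Levels were compared between genes only per length, as TPM (a level relative to all transcripts of the library) computed from the deposited counts and the annotated transcript lengths. On this scale PSMB8 was at 0.517, 0.592 and 0.541 of the level of PSMB5 in siRNA-NC and at 0.871, 0.641 and 0.745 of it in si-AC010789.1. This ratio was higher in every si-AC010789.1 library than in the controls, and the log2 fold changes of PSMB8 and PSMB5 had opposite signs. In TPM too, PSMB8 was higher and PSMB5 lower in every si-AC010789.1 library. The separation of the ratio follows from these genes and is no further result. PSMB9 was at 0.113, 0.127 and 0.129 of the level of PSMB6 in siRNA-NC and at 0.0539, 0.0635 and 0.116 in si-AC010789.1, where the last library lay among the controls. PSMB10 was at 0.0226 to 0.0348 of PSMB7 in siRNA-NC and at 0.0249 to 0.0377 in si-AC010789.1. In each library the constitutive subunits were thus the more abundant ones, most clearly for PSMB7 over PSMB10.

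**Figure D2:**
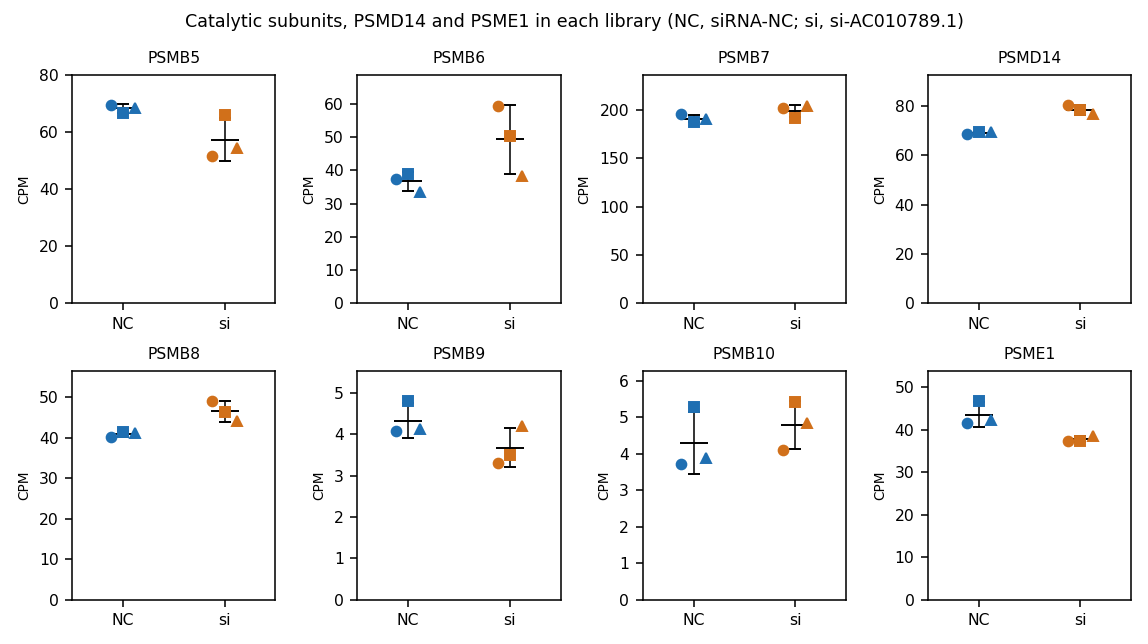
Levels (y axes, CPM from 0) of the constitutive (PSMB5, PSMB6, PSMB7) and inducible (PSMB8, PSMB9, PSMB10) catalytic subunits, PSMD14 and PSME1 in siRNA-NC (NC, blue) and si-AC010789.1 (si, orange), with circles, squares and triangles for replicates 1, 2 and 3 and bars for the mean and SD. The groups are apart for PSMB5, PSMB8, PSMD14 and PSME1 and overlap for the others.

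The 6 ATPases of the 19S base, PSMC1 to PSMC6, thread the substrate into the core. Of these, 5 had a positive log2 fold change and 1 a negative one, from −0.03 (PSMC2) to 0.19 (PSMC1), and the lowest adjusted p was 0.340 from edgeR. PSMC1 (chromosome 14, 90256495 to 90275429, plus strand) was at 22.0, 24.4 and 25.3 CPM in siRNA-NC and 28.9, 26.9 and 26.0 CPM in si-AC010789.1. More counts were listed for PSMC1P1, an annotated processed pseudogene of PSMC1 on chromosome 3 (68635705 to 68637024), than for PSMC1 itself. PSMC1P1 was at 83.9, 86.8 and 81.1 CPM in siRNA-NC and 95.4, 96.8 and 97.5 CPM in si-AC010789.1 (log2 fold change 0.20, with an edgeR adjusted p of 0.131). Reads of near-identical copies may have been divided between these genes, so the level of PSMC1 is uncertain. Their sum was 106, 111 and 106 CPM against 124, 124 and 124 CPM, a log2 ratio of 0.20, and this sum was formed after the values were seen. The groups overlapped for PSMC2, PSMC3, PSMC4, PSMC5 and PSMC6. PSMC3IP shares the symbol of PSMC3 because its product binds that ATPase, but it acts in meiotic recombination and is no proteasome subunit. PSMC3IP was at 58.6, 56.3 and 53.1 CPM against 58.9, 53.1 and 39.2 CPM (log2 fold change −0.15, with an edgeR adjusted p of 0.660).

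The 11 non-ATPase subunits of the 19S particle had 7 positive and 4 negative log2 fold changes, with a median of 0.01. PSMD14 (chromosome 2, 161308038 to 161411717, plus strand), the metalloprotease that removes ubiquitin chains at the entrance of the core, had the least spread. It was at 68.8, 69.3 and 69.3 CPM in siRNA-NC and 80.6, 78.5 and 76.6 CPM in si-AC010789.1. The log2 fold change of 0.18 (standard error 0.05, 95% interval 0.06 to 0.31) had an unadjusted p of 0.011 and an adjusted p of 0.160 from edgeR, and it stayed between 0.16 and 0.20 with any 1 library left out. PSMD8, which sits in the lid, was at 72.8, 82.1 and 75.9 CPM against 90.4, 84.6 and 88.8 CPM (log2 fold change 0.19, with an edgeR adjusted p of 0.222). The ubiquitin-binding subunits overlapped between the groups. PSMD2 (chromosome 3, 184298709 to 184309054, plus strand), the large scaffold of the base, was at 270, 269 and 248 CPM against 268, 289 and 300 CPM (log2 fold change 0.12, with an edgeR adjusted p of 0.358). PSMD4, a ubiquitin receptor, was at 115, 116 and 109 CPM against 112, 104 and 110 CPM (−0.06, adjusted p = 0.614 from edgeR). The groups overlapped for PSMD1, PSMD3, PSMD6, PSMD7, PSMD11, PSMD12 and PSMD13, with log2 fold changes from −0.11 to 0.10.

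The activators open the gate of the core without the 19S particle. PSME1 and PSME2 form the interferon-induced PA28 ring of the cytoplasm. PSME1 (chromosome 14, 24136158 to 24138967, plus strand) was at 41.5, 46.9 and 42.3 CPM in siRNA-NC and at 37.3, 37.4 and 38.6 CPM in si-AC010789.1. All its si-AC010789.1 values were below the controls (log2 fold change −0.21 ± 0.07 SE, with an edgeR adjusted p of 0.240), and PSME1 shares exonic positions with EMC9 on the other strand. PSME2, its partner, was at 29, 31.6 and 32.2 CPM against 31.6, 27.5 and 29.6 CPM, and the groups overlapped (−0.07, adjusted p = 0.752 from edgeR). PSME3, which forms the nuclear PA28 ring, was at 96.9, 154 and 150 CPM against 175, 167 and 153 CPM (0.30, adjusted p = 0.430 from edgeR). The first siRNA-NC library of PSME3 was far below the others, and without that library the log2 fold change was 0.12. PSME4, a nuclear single-chain activator, was at 111, 132 and 133 CPM against 111, 125 and 115 CPM (−0.10, adjusted p = 0.620 from edgeR). PSMF1 (chromosome 20, 1113263 to 1189415, plus strand), which encodes the inhibitor PI31, was at 29, 29.6 and 36.0 CPM against 27.8, 22.0 and 29.4 CPM (−0.26, adjusted p = 0.414 from edgeR). In PSMF1 the third si-AC010789.1 library lay among the controls.

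The chaperones PSMG1, PSMG2, PSMG3 and PSMG4 assemble the alpha ring. All 4 had positive log2 fold changes, of 0.04, 0.03, 0.09 and 0.23, and all 4 overlapped between the groups. PSMG4 was the least precise member, at 7.35, 6.40 and 11.8 CPM in siRNA-NC and 6.28, 17.3 and 6.39 CPM in si-AC010789.1. Its positive value rested on the second si-AC010789.1 library, without which it was −0.43, and the 95% interval ran from −0.87 to 1.33. The chaperones of the 19S base are PSMD5, PSMD9 and PSMD10. PSMD5 was at 141, 145 and 141 CPM against 137, 159 and 141 CPM. PSMD9 was at 29.2, 33.9 and 30.7 CPM against 30.3, 23.1 and 33.2 CPM. PSMD10, also known as gankyrin, was at 34.8, 37.7 and 27.0 CPM against 29.5, 42.7 and 30.4 CPM. Groups overlapped for all base chaperones, whose log2 fold changes were 0.03, −0.12 and 0.05, and the lowest adjusted p was 0.736 from edgeR.

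The steady-state levels were spread over a 40.7-fold range per length. The highest means over the 6 libraries were those of PSMB7 (394 TPM), PSMA7 (380 TPM) and PSMC3 (364 TPM), and the lowest those of PSMB9 (9.67 TPM), PSMB10 (11.5 TPM) and PSMG4 (15.3 TPM). Neighbours in this order did not differ beyond their spread, since PSMB7, PSMA7 and PSMC3 overlapped between libraries, as did PSMB9 with PSMB10 and PSMB10 with PSMG4. The constitutive 20S subunits, which the complex holds in equal numbers, lay within a 5.16-fold range, from PSMA2 (76.3 TPM) to PSMB7. The non-ATPase subunits were the most even group, from 74.6 TPM (PSMD14) to 213 TPM (PSMD2). The ATPases ran from 29.7 TPM (PSMC1) to 364 TPM (PSMC3). The low end is uncertain, since the pseudogene PSMC1P1 was at 132 TPM on average and reads may have been divided between it and PSMC1. A TPM value depends on how reads were divided between long and short transcripts of a gene, which the sources used here do not describe.

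**Figure D3:**
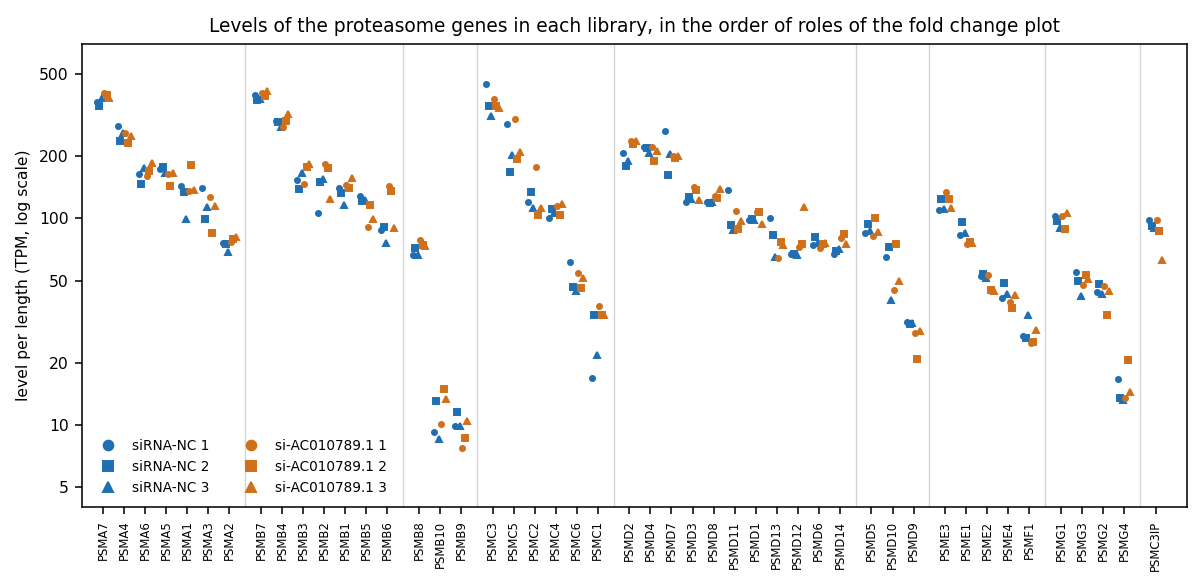
Level per length (y axis, TPM, log scale) of each proteasome gene in each library, in the order of roles of the fold change plot and by falling mean within a role, with blue for siRNA-NC, orange for si-AC010789.1 and circles, squares and triangles for replicates 1, 2 and 3. The constitutive core subunits lie between 76.3 TPM (PSMA2) and 394 TPM (PSMB7) on average, and the inducible PSMB9 and PSMB10 lie near 10 TPM.

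Other genes of the ubiquitin-proteasome pathway were read from a list of 42 genes, of which 41 were tested. The list was chosen with earlier results of these data known, so its shares are a description only. None had an adjusted p-value under 0.05 with edgeR, 13 (31.7%) had an unadjusted p under 0.05, against 17.2% of all genes, and DESeq2 called 3 (7.32%), against 5.42% of all genes. The groups did not overlap in 13 of the 41 (31.7%), where 12.2% of all genes were higher in this way and 12.9% lower. Positive log2 fold changes were found in 22 and negative ones in 19, with a median of 0.0047. NFE2L1, which encodes the factor that induces proteasome genes when the proteasome is impaired, was at 244, 179 and 206 CPM in siRNA-NC and 211, 112 and 210 CPM in si-AC010789.1 (log2 fold change −0.24, with an edgeR adjusted p of 0.686). POMP, the chaperone of beta ring assembly, was at 21.5, 30.1 and 28.1 CPM against 33.9, 35.4 and 31.5 CPM, higher in each si-AC010789.1 library (0.34, adjusted p = 0.281 from edgeR). ADRM1, the ubiquitin receptor that docks on PSMD2, was at 135, 125 and 130 CPM against 131, 133 and 132 CPM (0.02, adjusted p = 0.854). TAP1, which pumps proteasome products into the endoplasmic reticulum and shares a promoter region with PSMB9, was at 52.9, 58.7 and 53.6 CPM against 48.9, 46.4 and 49.8 CPM (−0.19, adjusted p = 0.254).

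The groups were apart in 4 of the 5 genes listed around the unfoldase VCP, which were singled out after their values were seen and are a description beside the shares of all genes given above. NPLOC4, a cofactor that brings ubiquitinated proteins to the unfoldase VCP, was at 175, 181 and 190 CPM in siRNA-NC and 215, 220 and 220 CPM in si-AC010789.1 (log2 fold change 0.26, with adjusted p-values of 0.0642 by edgeR and 0.00463 by DESeq2). FAF1, another VCP cofactor, was at 104, 97.5 and 104 CPM against 85.4, 71.9 and 85.3 CPM (−0.33, with adjusted p-values of 0.123 by edgeR and 0.0417 by DESeq2). VCP and UFD1 were higher in each si-AC010789.1 library, with log2 fold changes of 0.14 and 0.17 and adjusted p-values of 0.211 and 0.215 from edgeR.

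No gene sum passed the test, and neither did any member transcript with edgeR. The listed counts of some proteasome genes were nevertheless divided differently between their transcripts from library to library. The count table held 407 transcripts of the members, and 230 were tested among 44319 transcripts. Of all transcripts, 6 (0.0135%) had an adjusted p-value under 0.05 with edgeR, and 0 were from proteasome genes, where the lowest value was 0.163. DESeq2 called 675 of all transcripts (1.54%) and 8 of 226 member transcripts (3.54%), from 6 genes, with 5 higher and 3 lower after silencing. An unadjusted p under 0.05 together with a log2 fold change beyond 1 in size, as the study required, was met by 3.50% of all transcripts and by 16 of the member transcripts (6.96%), 9 higher and 7 lower. Transcripts varied far more than genes within a group, with a median coefficient of variation of 34.0% for the member transcripts. For a tested member transcript, a median of only 5.21% of its 31-base words were found in no other annotated transcript of the same gene. The division of reads between transcripts of a gene thus rested on few bases. Other genes were not searched for these words.

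The coding bases that tell the transcripts of PSME1, PSMB6, PSMA7 and PSMD2 apart are shown because these were the genes with a coding transcript that DESeq2, though not edgeR, called higher after silencing. For PSMD2 the bases are those of the other form, which that transcript lacks. They were read from the GENCODE v29 transcripts (GRCh38), 5′ to 3′, and coordinates span the intron where the bases flank a splice junction. Capitals mark bases that the other transcript of the pair lacks.
PSME1 ENST00000561435 (chr14:24138551-24138745, plus strand): caatgcttatGTGAGGAGgctgtgttat
PSME1 ENST00000206451 (same region): caatgcttatgctgtgttat
PSMB6 ENST00000614486 (chr17:4798144-4798289, plus strand): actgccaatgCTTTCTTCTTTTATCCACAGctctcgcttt
PSMB6 ENST00000270586 (same region): actgccaatgctctcgcttt
PSMA7 ENST00000370858 (chr20:62139761-62139790, minus strand): tctgaagcagGTGGGTGCCTGCCCGCTTGC
PSMA7 ENST00000370873 (chr20:62139178-62139790, minus strand): tctgaagcagCGTTATACGCAGAGCAATGG
PSMD2 ENST00000310118 (chr3:184300425-184301546, plus strand): TGGCCCCTGGGGAGAATAAGcgttttgctg

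In PSMD2, counts were listed for a transcript that had none in the controls. ENST00000439383 had 0 counts in each siRNA-NC library and 631, 2073 and 2103 counts in si-AC010789.1. In CPM, the si-AC010789.1 mean was at least 492-fold higher than a floor of 3 counts per control library, and the first library was well below that mean. ENST00000310118, which held 92.8% of the PSMD2 counts in siRNA-NC, had 2794, 3409 and 3009 counts there and 1630, 1342 and 1383 in si-AC010789.1. Adjusted p-values were 0.163 for either transcript with edgeR, and 1.04e-17 and 3.94e-05 with DESeq2. As a share of PSMD2 counts, ENST00000439383 took 20.5%, 57.3% and 56.7% in the si-AC010789.1 libraries. Another transcript, ENST00000435761, had 478 counts in the first si-AC010789.1 library and 0 in the others, against 0, 9 and 12 in siRNA-NC. ENST00000310118 is annotated with 908 residues and ENST00000439383, which starts at a downstream exon and lacks the bases shown in capitals, with 778, a difference of 130. The transcripts share 2528 bases, 921 bases are found only in ENST00000310118 of the pair and 105 only in ENST00000439383. None of the 31-base words of ENST00000439383 was particular to it among the annotated transcripts of PSMD2, so its counts rest on how shared reads were assigned.

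PSME1 had the same pattern at a lower level. ENST00000561435 had 0 counts in each siRNA-NC library and 164, 77 and 50 counts in si-AC010789.1. The si-AC010789.1 mean was at least 30.9-fold higher than the same floor (adjusted p = 0.320 from edgeR and 1.79e-07 from DESeq2). ENST00000206451 had 227, 165 and 349 counts in the siRNA-NC libraries against 87, 130 and 108 in si-AC010789.1. The transcripts differ in their coding parts by the 8 bases in capitals, added at the end of an exon, which leave 233 residues in place of 249. These were the only 2 member transcripts (0.870%) with 0 counts in every library of a group and at least 10 in every library of the other, compared with 0.228% of all transcripts tested, and this criterion was set after the values were seen.

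In PSMB6, ENST00000614486, with 20 additional bases at the start of an exon and 213 instead of 239 residues, had 25, 6 and 26 counts in the siRNA-NC libraries against 122, 112 and 107 in si-AC010789.1. Its adjusted p was 0.551 from edgeR and 0.00312 from DESeq2. The intron-retaining ENST00000575079 had 11, 12 and 5 counts against 93, 213 and 13. The main coding transcript, ENST00000270586, had 370, 476 and 411 counts against 445, 266 and 327 and overlapped between the groups, so the higher PSMB6 sums in si-AC010789.1 came with counts of the minor transcripts. In PSMA7, ENST00000370858, which reads into an intron and is annotated with 149 residues, had 105, 80 and 90 counts against 216, 221 and 288 (log2 fold change 1.43, with adjusted p-values of 0.354 by edgeR and 0.000141 by DESeq2). Of its 31-base words 36.8% were found in no other annotated transcript of PSMA7. This share within the gene was larger than for the higher transcripts of PSMD2, PSME1 and PSMB6. The full-length ENST00000370873, with 248 residues, had 851, 342 and 397 counts against 119, 493 and 919 and differed more within than between the groups.

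**Figure D4:**
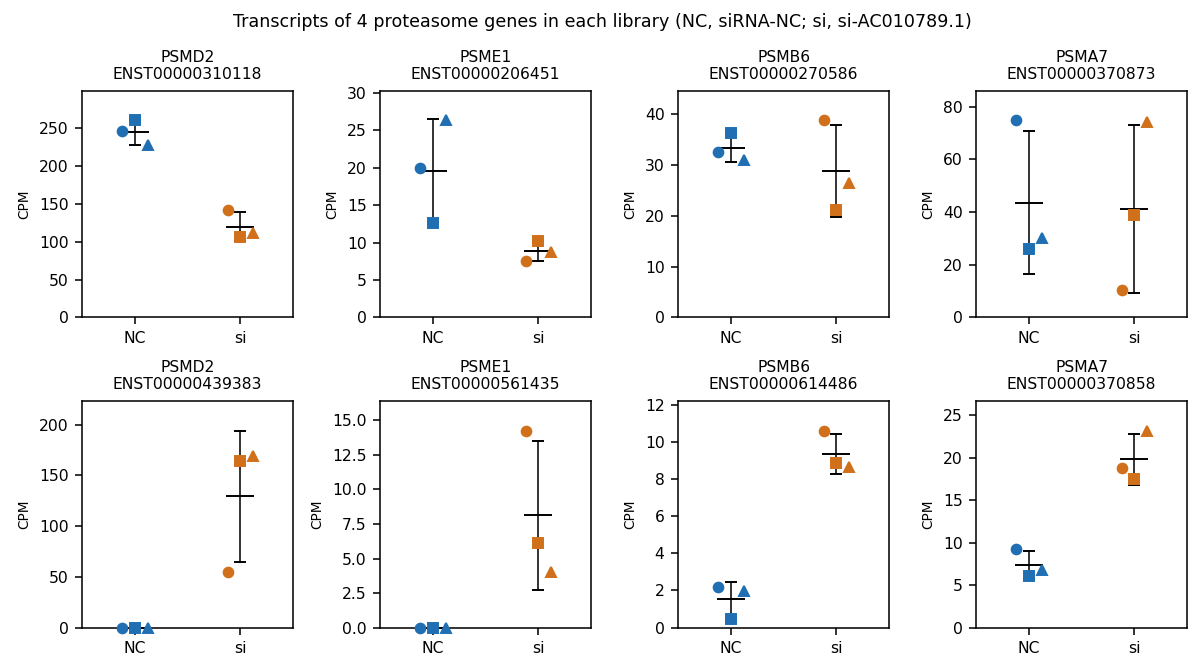
Levels (y axes, CPM from 0) of a pair of transcripts each of PSMD2, PSME1, PSMB6 and PSMA7, in siRNA-NC (NC, blue) and si-AC010789.1 (si, orange). The upper row shows the transcript of each pair with more annotated residues, and the lower row the transcript that was higher in si-AC010789.1. Circles, squares and triangles mark replicates 1, 2 and 3, and bars the mean and SD. ENST00000439383 and ENST00000561435 are at 0 in all siRNA-NC libraries, and the groups are apart in the lower row.

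Of the 7 transcripts that met the criteria with lower counts in si-AC010789.1, 4 are annotated with a retained intron, and of the 9 with higher counts 3 are. The share of this type among all tested transcripts was not computed, so these counts are a description only. ENST00000526443 of PSMA1 had 90, 50 and 39 counts in the siRNA-NC libraries against 6, 11 and 8 in si-AC010789.1 (adjusted p = 0.355 from edgeR and 0.00105 from DESeq2). ENST00000553665 of PSMA3 had 28, 17 and 24 counts against 5, 5 and 2 (0.413 from edgeR and 0.0208 from DESeq2 after adjustment). PSMD8 transcripts ENST00000592035, a coding one, and ENST00000592001 had 47, 90 and 14 against 2, 7 and 9 counts and 14, 43 and 115 against 16, 10 and 7 counts. Among the other transcripts that met the criteria of the study, ENST00000584289 of PSMD12 had 11, 41 and 2 counts against 69, 115 and 398, and ENST00000533717 of PSMD13 had 114, 132 and 40 against 26, 34 and 38. ENST00000317615 of PSMG2 had 41, 29 and 88 counts against 97, 139 and 113. In PSMC1, ENST00000543772 had 0, 239 and 0 counts in the siRNA-NC libraries against 252, 224 and 238 in si-AC010789.1, which was 73.8% of the PSMC1 counts in the second control library and 66.5% to 76.1% in the si-AC010789.1 libraries. The groups thus overlapped, and it did not pass the test (adjusted p = 0.992 from edgeR). The sums of PSMA3, PSMD12, PSMD13 and PSMG2 over all their transcripts overlapped between the groups. Over the whole list, the transcript with the most counts in a group was the same in the 2 groups for 38 members and another for 9. PSMD2, PSME1, PSMC1 and PSMG2 were among the 9. For PSME1 the leading transcript in si-AC010789.1 was ENST00000382708, with 32.6% of the counts, and not ENST00000561435. How often the leading transcript differed over all genes was not computed, so no result about the members can be read from this.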

How the data were processed

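The authors sequenced paired-end TruSeq libraries of HCT116 cells, 3 per group, on a NovaSeq. They deposited raw counts, whole numbers for each Ensembl transcript in each library. The submitters' processing notes name CASAVA 1.8, TopHat2 2.0.6 and the builds mm10 and GRCh38, while the counting program, its annotation and its use of strand are not given in the sources used here. The study's methods name Cuffdiff, which needs alignments and was not run.

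Of 98886 transcripts, 98782 were matched to GENCODE v29 and summed per gene. Genes and transcripts were tested with edgeR 4.0.16 (TMM, filterByExpr with minimum count 10 and minimum total 15, quasi-likelihood test, Benjamini-Hochberg adjustment over all features) in R 4.3.3, and with DESeq2 1.42.0 as an alternative. TPM used annotated transcript lengths. Scripts (Python 3.11.15, pandas 2.3.3, numpy 2.4.6, scipy 1.17.1, matplotlib 3.10.9) were tested on simulated data. A level of 3 counts was 0.223 to 0.266 CPM, and covers counting error only. The biological coefficient of variation was 0.170 for genes and 0.698 for transcripts.

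Named with values were the 5 members with the highest and the 5 with the lowest log2 fold change, the catalytic subunits, activators, inhibitor, chaperones, PSMD2, PSMD4, PSMD14, PSMC3IP, the 3 highest and 3 lowest per length, transcripts at the study's criteria, NFE2L1, POMP, ADRM1 and TAP1; other genes were named after their values were seen. The members, the pathway list and the marker lists were chosen with earlier results of these data known. Alternatives were DESeq2, RLE factors, no filter, a mean of at least 1 CPM, a replicate block, totals without TMM factors, values per length and each library left out. The values of 1 gene of the pathway list are not reported here.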

Additional observations from a re-analysis of the deposited data

How the results depend on the processing

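No proteasome gene passed the adjusted threshold under any of the 11 alternatives for genes (DESeq2, RLE factors, no filter, a mean of at least 1 CPM, a replicate block and each library left out), with 3 members given no adjusted p by DESeq2, and no pathway gene passed except 3 with DESeq2. Over all genes, 528 passed with DESeq2, 69 without the filter, 0 with a replicate block and 12 to 37 with 1 library left out, compared with 135. Member transcripts called numbered 8 with DESeq2 and 0 otherwise; the cause was not tested. The median log2 fold change of the members was 0.021 (without siRNA-NC replicate 3) to 0.072 (without siRNA-NC replicate 1) with 1 library left out, and members with separate groups numbered 14 to 18, most without si-AC010789.1 replicate 3. The summed level was 3.45% to 5.63% higher in si-AC010789.1 with 1 library left out, 4.49% higher over all libraries, and 3.61% higher per length.

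Of the members, 34 kept the sign of their log2 fold change under all 11 alternatives and 13 did not. With 1 library left out, values ran from −0.012 to 0.075 for PSMB4, −0.064 to 0.016 for PSMC2, −0.086 to 0.20 for PSMC6, −0.022 to 0.060 for PSMD1, −0.14 to 0.15 for PSMD10, −0.079 to 0.083 for PSMD11, −0.071 to 0.12 for PSMD13, −0.030 to 0.073 for PSMD5, −0.29 to 0.031 for PSMD7, −0.23 to 0.024 for PSMD9, −0.036 to 0.12 for PSMG2, −0.038 to 0.21 for PSMG3 and −0.43 to 0.54 for PSMG4. PSMD13 was also at −0.0026 without the filter. Of the pathway genes named, the ranges also crossed 0 for 2, with −0.38 to 0.010 for NFE2L1 and −0.0066 to 0.053 for ADRM1. The correlations of deviations from the group means were 0.0896, 0.0028 and 0.00032 for libraries with the same replicate number. For the other pairs they ran from −0.0771 to 0.0789, and not every library correlated best with its own number. With 3 libraries per group, these values cannot decide whether libraries of the same number belong together. The main test took them as unpaired.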

Other observations

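Another 37 genes with PSM symbols, mostly processed pseudogenes, are annotated in GENCODE v29, and 12 had rows, of which 3 had enough counts to be tested, PSMC1P1 among them. PSMC1P9, on chromosome 12, had 27, 21 and 16 counts in the siRNA-NC libraries against 12, 18 and 14 in si-AC010789.1 (log2 fold change −0.50, adjusted p = 0.499 from edgeR). PSMA3-AS1, which lies antisense to PSMA3, had 4, 5 and 4 counts against 16, 4 and 11, and PSMD7P1 had 2, 2 and 2 against 4, 6 and 5. Both were under the filter on low counts. Of the 47 members, 24 share exonic positions with another annotated gene. The overlap was on the other strand alone for 16, where counting without strand would mix the genes, and on the same strand alone for 4 or on both strands for 4, where the use of strand would not separate them fully.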
